A study of Mus musculus with 8 samples.

Results

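Chaperones are proteins that help other proteins fold, and the male germ line makes its own versions of several of them. The genes described here are 6 germ cell chaperones, Clgn, Calr3, Pdilt, Hspa2, Hspa1l and Hspa4l, and 3 general relatives that most cells use, Canx, Calr and Hspa8. They were chosen by symbol, with earlier results of these data known, and all 9 were found among the 18584 gene symbols listed at any age. Of the 9, 8 were listed in all 8 libraries, and Pdilt was listed at 10 and 20 days post partum (dpp) but not at 16.5 days post coitum (dpc). A gene is listed at an age where every library of that age held at least a handful of reads, so an unlisted gene may be silent in only 1 library.

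The libraries are bulk RNA sequencing of whole testis from male mice of a hybrid background between C3H/HeJ and C57BL/6J. Homozygous Dnmt3C IAP/IAP animals, called mutants here, carry an inserted IAP endogenous retrovirus in both copies of a germ cell DNA methyltransferase gene. The controls are heterozygous, Dnmt3C IAP/WT, so they carry the same insertion in 1 copy, and no library without it was compared here. Each genotype has 2 libraries of 20 dpp, 1 of 10 dpp and 1 of 16.5 dpc, which makes 6 groups. The labels do not tie the libraries of a genotype to separate animals. The p-values below therefore cover only library-to-library spread, which may be technical.

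In the endoplasmic reticulum, calnexin (Canx) and calreticulin (Calr) hold newly made glycoproteins by their sugar chains until they are folded. Calmegin (Clgn) is the germ cell counterpart of calnexin and Calr3 that of calreticulin. Pdilt is a protein disulfide isomerase of the testis that works with both. Sperm surface proteins of the ADAM family, above all ADAM3, are their known clients, and males without Clgn, Calr3 or Pdilt are infertile. In the cytosol and nucleus, HSPA8 is the constitutive HSP70. HSPA2 is the HSP70 of meiotic spermatocytes, which sits on the synaptonemal complex and assists CDK1, and spermatocytes without it do not complete meiosis. HSPA1L is an HSP70 of spermatids, and HSPA4L belongs to the HSP110 branch, which exchanges the nucleotide of HSP70 proteins.

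Reads on genes ran from 57166311 to 74312625 at 16.5 dpc and 10 dpp, and from 88996175 to 155742823 at 20 dpp. Markers of Sertoli cells, the somatic nurse cells of the testis, summed to between 1558 and 6362 CPM in every library. CPM, counts per 1000000 gene reads of a library, is the unit of level used throughout. Markers of pachytene spermatocytes, cells in the middle of meiotic prophase, summed to at most 149.8 before 20 dpp. Dnmt3c, the targeted gene, was not analysed here and so gives no check of the genotype labels.

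The promoters of Canx and Calr are shown first because both hold an element of endoplasmic reticulum stress, and that of Pdilt is shown as one with no match. RefSeq promoter sequences (GRCm38.p6) matched 7 of the 9 genes. Clgn and Hspa8 had no entry. Each stretch below is 100 bases, from position -200 to position -101 relative to the annotated start, written 5′ to 3′ on the gene's strand. Capitals mark the endoplasmic reticulum stress response element (ERSE), CCAAT, then 9 bases of any kind, then CCACG.
Calr, minus strand, chr8:84847032-84847131: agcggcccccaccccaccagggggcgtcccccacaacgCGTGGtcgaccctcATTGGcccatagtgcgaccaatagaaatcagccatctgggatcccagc
Canx, minus strand, chr11:50325774-50325873: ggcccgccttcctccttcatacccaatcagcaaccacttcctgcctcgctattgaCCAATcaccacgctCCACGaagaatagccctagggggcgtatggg
Pdilt, minus strand, chr7:119523583-119523682: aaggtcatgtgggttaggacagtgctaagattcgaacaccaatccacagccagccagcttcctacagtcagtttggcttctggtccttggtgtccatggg

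In Canx the element reads forward, and in Calr it lies on the opposite strand, so the capitals there are its reverse complement. Both strands of 32851 promoter windows, each the 250 bases before a start, were searched, and 37 of them (0.113%) held the element. Of the members with an entry, Canx and Calr held it, and the windows of Calr3, Pdilt, Hspa2, Hspa1l and Hspa4l held no match. The part of the element in the changes at 20 dpp was not tested. Canx (log2 change -0.65), Calr (-0.63) and Calr3 (-0.68, not passing the test), of which only the first 2 hold it, had changes of like size, and Pdilt had -8.16. A heat shock element (GAANNTTC, in 6.69% of windows), a cyclic AMP element (TGACGTCA, 1.55%), a MYB site (AACNGTT, 3.80%) and an RFX site (GTTGCCA, 3.66%) were searched in the same way. None of these 4 motifs matched in a window of a member. A match is only a string of letters, and no match says only that these letters are not in the window.

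At 20 dpp, 5 of the 6 germ cell chaperones were lower in the mutants, by 3.45-fold to 286.5-fold, and Calr3 did not pass the test. Across all genes 33.1% of 17194 were lower and 26.4% higher by the same rule, which is a limma moderated test on log2 values with a Benjamini-Hochberg adjusted p under 0.05. The scale of the deposited values sets the median log2 change of all genes at 0.05. With total gene reads as the scale that median was 0.64, 22.1% of all genes were lower and 49.0% higher, and 5 of the 6 germ cell chaperones were again lower.

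Markers of several testis cell types moved with genotype in the same libraries. Pachytene spermatocyte markers summed to 424.6 and 304.1 CPM in the mutants, while the control sums were 9027 and 8456. Of 13 measured markers 13 were lower on the scale of the deposited values, and 12 with total gene reads. Spermatid markers summed to 35.8 and 27.3 against 670.1 and 402.7, with 11 of 11 measured lower. A listed gene has reads in every library of its age, so none of these markers could be at 0. Early meiosis markers summed to 2916 and 2556 in mutants, and the control sums were 3348 and 3771. They went both ways: of 11 measured, 8 (72.7%) were lower and 2 (18.2%) higher. With total gene reads 3 (27.3%) were lower and 3 (27.3%) higher. All genes had 33.1% lower and 26.4% higher, and with total gene reads 22.1% and 49.0%. The lower share with total gene reads was thus near that of all genes. Sertoli cell markers summed to 5612 and 6362 against 1885 and 2112, with 10 of 10 higher. Markers of undifferentiated spermatogonia summed to 273.8 and 272.8 in mutants and 145.8 and 165.1 in controls, with 7 of 10 higher and 1 lower. Markers of differentiating spermatogonia overlapped, at 589.2 and 618.3 in mutants and 758.9 and 559.0 in controls. Of these 6 markers 4 were higher and 1 lower. In bulk RNA, fewer cells of a type and less RNA per cell cannot be told apart, and the part of the cell types in the values of the chaperones was not tested.

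Clgn lies on chromosome 8 (mm10, 83389867 to 83428552, plus strand). The mutants held 2534 and 2087 normalised reads of it at 20 dpp, and the controls 139157 and 116252. Every control library was far above every mutant library, while libraries of 1 genotype differed 1.20-fold and 1.21-fold. The log2 change, mutant minus control, was -5.79 ± 0.15 (SE), 55.3-fold lower, with a limma adjusted p of 1.4e-06.

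Pdilt lies on chromosome 7 (119486587 to 119523489, minus strand). It was counted with 29 and 16 reads in the 2 mutant libraries of 20 dpp, while the 2 control libraries held 4761 and 4465. In normalised reads, that is 20.7 and 15.8 against 7696 and 3870. Its mutant libraries were near the lowest counts that are listed, and its control libraries differed 1.99-fold from each other. The log2 change was -8.16 ± 0.41 (adjusted p = 5.3e-06), rank 100 among all genes from the most negative. The annotation places 4.56% of its exon bases over exons of Acsm5 on the opposite strand, and the strand setting of the counting is not given in the sources used here.

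Calr3 lies on chromosome 8 (72424176 to 72443870, minus strand). The mutants held 527.8 and 471.9 normalised reads and the controls 887.5 and 723.8. The groups did not overlap, but the controls were as far apart as 1.23-fold. The log2 change was -0.68 ± 0.26 and did not pass (adjusted p = 0.058). It passed where limma fitted no trend of the variance (adjusted p = 0.0393). On total gene reads the libraries overlapped, at 5.82 and 5.03 CPM for the mutant libraries and 6.17 and 5.36 for the control ones.

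Hspa2 lies on chromosome 12 (76404176 to 76406938, plus strand). The mutants held 16131 and 12902 normalised reads at 20 dpp and the controls 285240 and 246498. Between genotypes the log2 change was -4.20 ± 0.15, 18.4-fold lower (adjusted p = 1.8e-06). By reads, Hspa2 was the gene ranked 6 in control replicate 1 and 9 in control replicate 2, and its rank was 1365 and 1989 in the mutants. Clgn ranked 54 and 61 in the controls against 7900 and 8475 in the mutants, and Hspa4l 60 and 68 against 678 and 779.

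Hspa4l lies on chromosome 3 (40744495 to 40796103, plus strand). The mutants held 22872 and 22417 normalised reads and the controls 135248 and 110739. Its mutant libraries were nearly equal, 1.02-fold apart. Its log2 change was -2.43 ± 0.14, 5.405-fold lower (adjusted p = 8.0e-06). Its nearest relative outside the germ line, Hspa4, had a log2 change of -1.08 ± 0.13 (adjusted p = 3.8e-04).

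Hspa1l lies on chromosome 17 (34972703 to 34979285, plus strand), in a cluster with the heat-inducible genes Hspa1a and Hspa1b. The mutants held 725.1 and 590.1 normalised reads and the controls 3138 and 1623, so the lower control was well under the higher one. Its log2 change was -1.78 ± 0.33, 3.45-fold lower (adjusted p = 0.0029). Hspa1a lies on the minus strand, head to head with Hspa1l, and 546 bases separate the starts of the 2 genes. It went the other way, with a log2 change of 1.14 ± 0.26 (adjusted p = 0.0074). The coding sequences of Hspa1l and Hspa1a are 83.6% identical and share a run of 233 bases, so reads could pass between them. Antisense exons of Gm10501 cover 71.9% of the exon bases of Hspa1l, and Gm10501 is not a listed gene.

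For Clgn, Calr3, Hspa2 and Hspa4l the shared runs with relatives were short, and Pdilt was not aligned. Between coding sequences the longest shared run was 15 bases for Clgn and Canx (68.0% identical), 21 for Calr3 and Calr (66.9%), 20 for Hspa2 and Hspa8 (76.1%), and 20 for Hspa4l and Hspa4 (68.3%). The longest run of Hspa2 shared with Hspa1l or with Hspa1a was 32 bases.

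The general relatives moved little. Canx lies on chromosome 11 (50293961 to 50325673, minus strand), with 47953 and 49627 normalised reads in the mutants while the controls had 74649 and 78030 (log2 change -0.65 ± 0.12, adjusted p = 0.0025). Calr lies on chromosome 8 (84841850 to 84846934, minus strand), with 82520 and 86067 against 128671 and 132403 (log2 change -0.63 ± 0.12, adjusted p = 0.0035). Both calls depend on the scale. With total gene reads as the scale the log2 changes were -0.050 (adjusted p = 0.716) for Canx and -0.035 (0.797) for Calr. With the upper quartile they were -0.19 (0.173) and -0.18 (0.210). With these scales the median of all genes was 0.64 and 0.50, so both genes lay below that median with each scale. A change of scale shifts all genes almost alike, so the scales do not check this place separately.

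Hspa8 lies on chromosome 9 (40800984 to 40810087, plus strand). The mutants held 16229 and 22942 normalised reads and the controls 18286 and 19085, so the groups overlapped. The log2 change was 0.05 ± 0.17 (adjusted p = 0.829). Its mutant libraries differed 1.41-fold, and without mutant replicate 2 the log2 change was -0.20. It passed as higher with total gene reads (0.64, adjusted p = 0.0096) and with the upper quartile (0.50, adjusted p = 0.0363). Of all genes 49.0% and 43.8% were higher with these scales. The median of all genes was the same, 0.64 and 0.50, so Hspa8 lay at that median with each of the 3 scales. That likeness between scales is no separate support, because a change of scale shifts all genes almost alike.

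**Figure D1:**
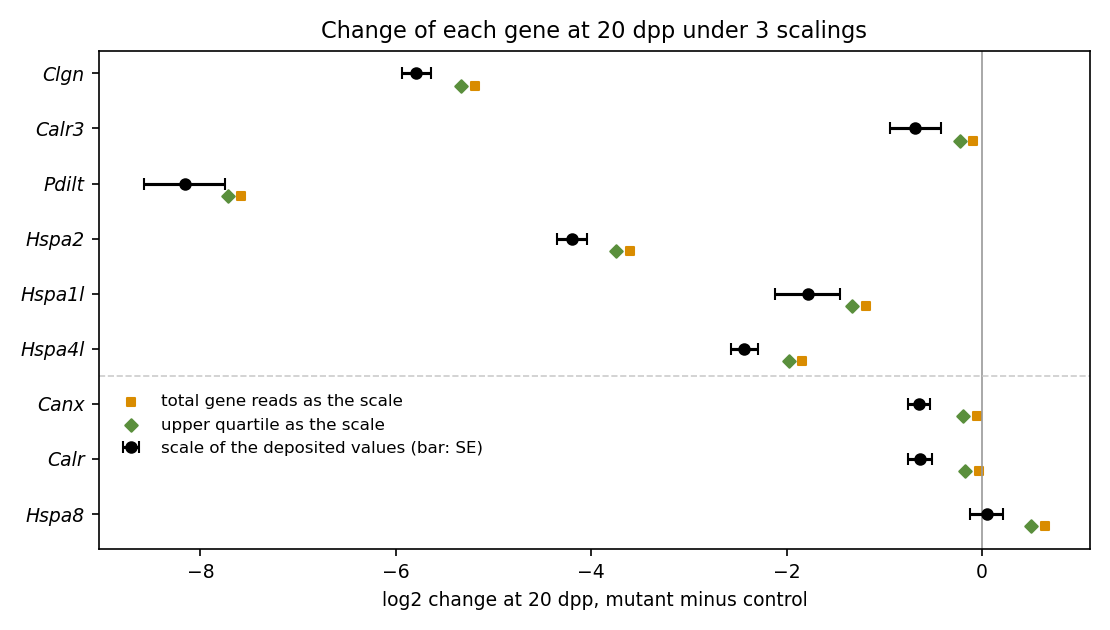
Log2 change of each gene at 20 dpp, mutant minus control, with the scale of the deposited values (black circles, bars of 1 SE) and with total gene reads (orange squares) or the upper quartile (green diamonds) as the scale. Clgn, Pdilt, Hspa2, Hspa1l and Hspa4l lie below 0 with each scale, while Canx and Calr lie near 0 with total gene reads and Hspa8 moves from 0.05 to 0.64.

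A ratio of one gene to another within a library does not depend on the scale. Log2 ratios of reads were taken for 6 pairs, not corrected for length, and an exact two-sided permutation test of 2 libraries against 2 cannot go below p = 0.333. Clgn to Canx was -4.24 and -4.57 for mutant libraries and 0.90 and 0.58 for control ones, a difference of -5.14 (exact p = 0.333). In the controls calmegin reads outnumbered those of calnexin, and in the mutants they were a small minority.

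Pdilt to Canx was -11.11 and -11.53 for mutant libraries and -3.28 and -4.33 for control ones, a difference of -7.52. Hspa2 to Hspa8 was -0.01 and -0.83 against 3.96 and 3.69, a difference of -4.25. Hspa4l to Hspa8 was 0.49 and -0.03 against 2.89 and 2.54, a difference of -2.48. For these 3 pairs the groups were separated by far more than libraries of 1 genotype differed, each with the smallest exact permutation p, 0.333.

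Hspa1l to Hspa8 was -4.48 and -5.28 for mutant libraries and -2.54 and -3.56 for control ones, a difference of -1.83 (exact permutation p = 0.333). Here the gap between the nearest libraries of the genotypes was smaller than the spread between the controls. Calr3 to Calr was -7.29 and -7.51 against -7.18 and -7.51, a difference of -0.05 (exact permutation p = 1). Its groups overlapped, and the difference ran from -0.22 to 0.12 when 1 library was left out.

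**Figure D2:**
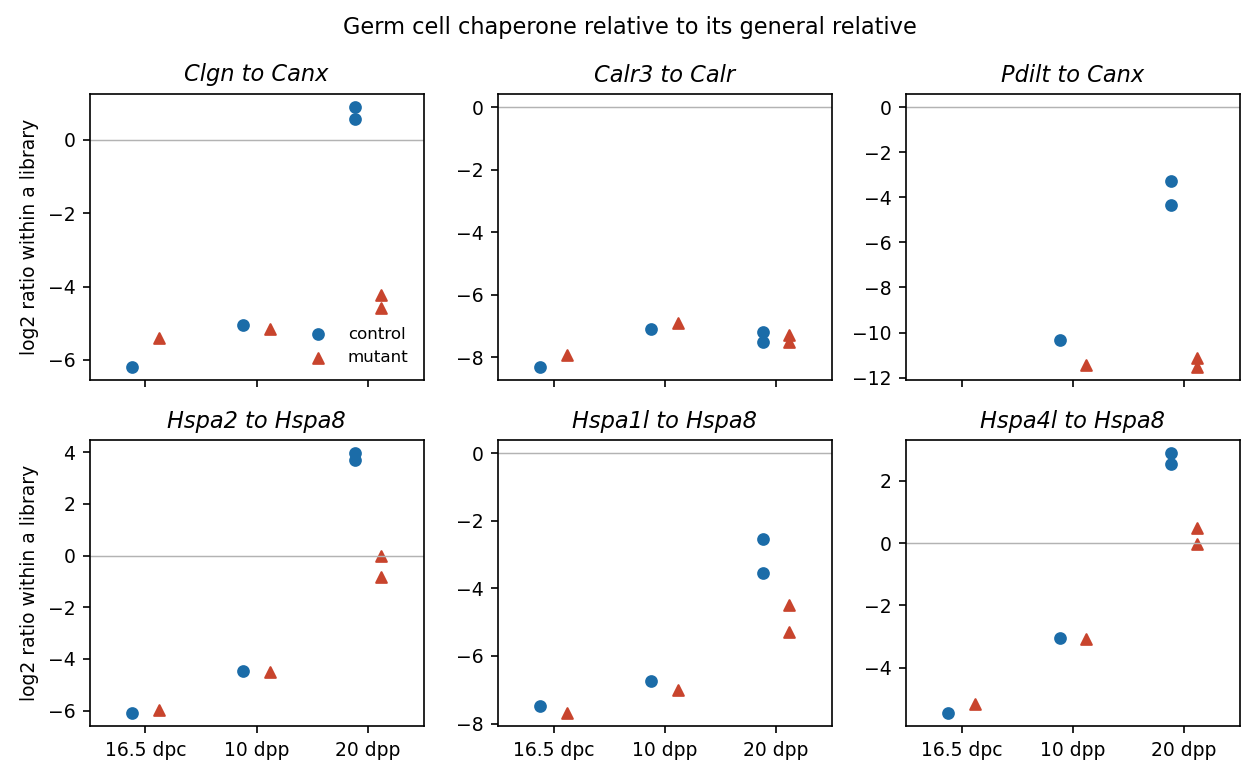
Log2 ratio of reads of each germ cell chaperone to its general relative within each library, by age, for controls (blue circles) and mutants (red triangles), with a grey line at 0, or equal reads. Clgn to Canx in the controls passes from -5.04 at 10 dpp to 0.90 and 0.58 at 20 dpp, while Calr3 to Calr at 20 dpp overlaps between genotypes.

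How far each gene depends on age was read from CPM. Ages were scaled apart by the authors, ages have 1 or 2 libraries per genotype, and age cannot be told apart from any difference in how libraries of an age were made. These levels are therefore a description, with no test. In the controls 4 of the 6 germ cell chaperones stood at least 8.88-fold higher at 20 than at 10 dpp, Hspa1l 2.22-fold and Calr3 1.16-fold.

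Clgn stood at 8.15 CPM in the control at 16.5 dpc, at 13.5 at 10 dpp and at 967.3 and 861.1 at 20 dpp, 67.5-fold above 10 dpp. In the mutants it stood at 13.5, then 12.1, then 27.9 and 22.3. Among 12084 genes with at least 5 CPM at 10 dpp, whose median ratio of 20 to 10 dpp was 0.630 in the controls, 0.0910% had a ratio at least as high as Clgn. Calmegin RNA in the mutants at 20 dpp was thus 1.85 times the control level at 10 dpp, and 2.75% of the control level at 20 dpp.

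Hspa2 stood at 14.5 in the control at 16.5 dpc, 37.5 at 10 dpp and 1983 and 1826 at 20 dpp. In the mutants the values were 15.1, 36.2 and then 177.9 and 137.6. The ratio of 20 to 10 dpp was 50.8 in the controls and 4.35 in the mutants, and 0.141% of genes had one at least as high in the controls. Of the germ cell chaperones, Hspa2 had the highest ratio in the mutants.

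Hspa4l was already higher at 10 dpp than at 16.5 dpc, with 99.2 against 22.6 CPM in the controls and 98.7 against 26.6 in the mutants. At 20 dpp it stood at 940.1 and 820.3 in the controls and 252.2 and 239.1 in the mutants. Relative to 10 dpp these are ratios of 8.88 and 2.49. In the controls 1.70% of genes had a ratio at least as high.

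Pdilt was counted with 22 reads in the control and 9 in the mutant at 10 dpp, or 0.329 and 0.139 CPM. At 20 dpp it stood at 53.5 and 28.7 in the controls, 125.0-fold above 10 dpp, and at 0.228 and 0.168 in the mutants. The mutant level at 20 dpp was 0.602 times the control level at 10 dpp, both from counts of at most 29 reads.

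Hspa1l stood at 5.60, 7.603 and then 21.8 and 12.02 in the controls, and at 4.63, 6.43 and then 7.995 and 6.30 in the mutants. Its ratio of 20 to 10 dpp, 2.22 in the controls and 1.11 in the mutants, rests on control libraries that differed 1.93-fold on the deposited scale. Calr3 stood at 2.45, 4.97 and then 6.17 and 5.36 in the controls, and at 3.001, 5.58 and then 5.82 and 5.03 in the mutants. Calr3 thus stayed low at every age, with no library above 6.17 CPM.

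Canx ran between 430.0 and 598.6 CPM over the 8 libraries, and Calr between 669.1 and 980.7. Both were lowest at 10 dpp, in either genotype. Hspa8 was the 1 member with a lower level at 20 than at 10 dpp in both genotypes. It had 823.2 CPM at 10 dpp and 127.1 and 141.4 at 20 dpp in the controls, a ratio of 0.163. In the mutants it had 830.7, then 178.9 and 244.7, a ratio of 0.255. Among the 12084 genes, 5.24% had a ratio at least as low in the controls.

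**Figure D3:**
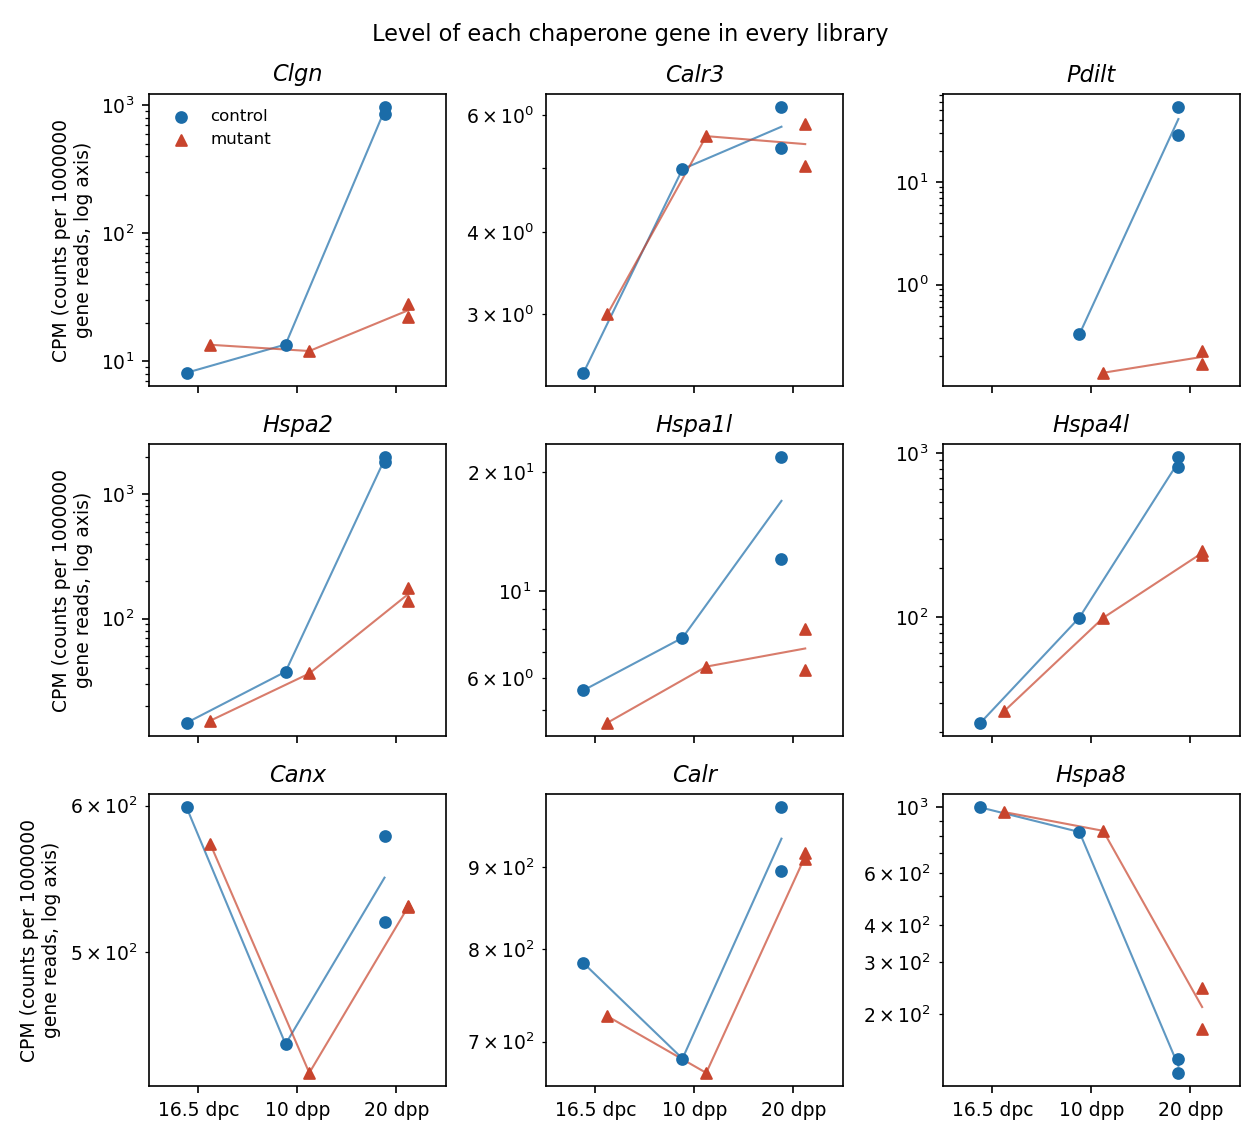
CPM (log axis, with its own range in each panel) of the 9 genes in every library, by age, for controls (blue circles) and mutants (red triangles). Lines join the group means, and Pdilt is not listed at 16.5 dpc. Clgn, Pdilt, Hspa2 and Hspa4l part between genotypes at 20 dpp, Calr3, Canx and Calr stay within a narrow range, and Hspa8 drops in both genotypes.

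Summed over the 6 germ cell chaperones, their share of gene reads was 0.397% and 0.355% in the controls at 20 dpp. In the mutants it was 0.0472% and 0.0411%, against 0.0159% and 0.0163% in the mutant and control at 10 dpp. The 3 general relatives held between 0.154% and 0.238% of gene reads in the 8 libraries. The germ cell genes as a sum therefore exceeded the general ones in the controls at 20 dpp, and stayed under them in every other library.

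The level that a germ cell chaperone had at 10 dpp in the control, as a percent of its control level at 20 dpp, can be set beside the percent kept in the mutants at 20 dpp. For Pdilt these were 0.7999% and 0.482%, and for Clgn 1.48% and 2.75%. For Hspa2 they were 1.97% and 8.28%, and for Hspa4l 11.3% and 27.9%. Hspa1l had 44.9% and 42.2%, and Calr3 86.3% and 94.1%. The order of the 6 genes was the same by either percent. Both percents share the 20 dpp controls as denominator, so no correlation is given.

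**Figure D4:**
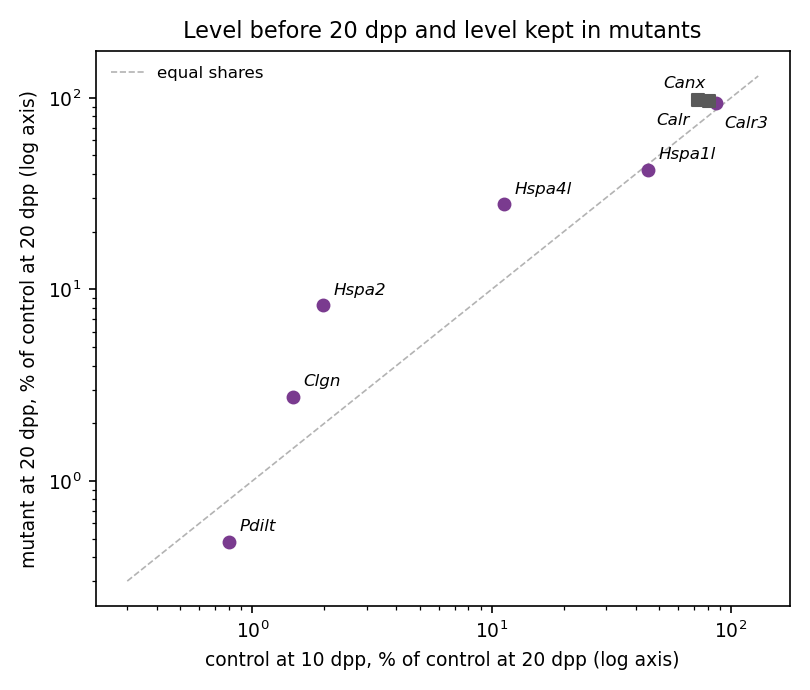
For each gene, the control level at 10 dpp (horizontal) and the mutant level at 20 dpp (vertical), each as a percent of the mean control level at 20 dpp in CPM, on log axes. Circles are germ cell chaperones and squares are Canx and Calr, the dashed line marks equal percents, and Hspa8 (613.2% and 157.8%) is left out. Hspa2 and Hspa4l lie farthest above the line, and Pdilt and Hspa1l lie below it.

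Levels of different genes can be compared once divided by transcript length, in CPM per kilobase, using the longest principal transcript. In the controls at 20 dpp the order was Hspa2 (753.9), Calr (429.3), Clgn (234.3), Canx (128.1), Hspa4l (92.9), Hspa8 (56.1), Pdilt (19.1), Hspa1l (6.84) and Calr3 (3.26). No neighbours in that order overlapped between libraries. In the mutants at 20 dpp the order was Calr (418.5), Canx (123.6), Hspa8 (88.5), Hspa2 (62.4), Hspa4l (25.9), Clgn (6.43), Calr3 (3.07), Hspa1l (2.89) and Pdilt (0.0922). There Calr3 and Hspa1l overlapped. If all exons are taken as the length, these change places, and so do Hspa8 and Hspa2. In the control at 10 dpp Hspa8 (343.8) and Calr (312.7) led, and they too change places with that length. Hspa2 stood at 14.8 there, behind Canx (104.1).

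At 10 dpp and 16.5 dpc each genotype has 1 library, so there is no replicate check and no p-value. Ratios of mutant to control on the deposited scale carry exact 95% binomial intervals that cover counting error only. A gene was singled out at 2-fold either way, with an interval that excludes 1 and at least 50 reads in all. By this rule 0 of 9 members stood out at 10 dpp and 0 of 8 at 16.5 dpc, beside 0.886% of 17376 and 0.734% of 17709 genes. Pdilt at 10 dpp, with 9 and 22 reads, was under the minimum of 50 and could not be singled out whatever its ratio. The same rule applied between replicates of 20 dpp gave 1146 genes for the mutants and 949 for the controls, and 0 members.

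At 10 dpp the ratio was 0.897 (interval 0.814 to 0.988) for Clgn, 0.975 (0.921 to 1.03) for Hspa2, 1.00 (0.970 to 1.04) for Hspa4l, 0.852 (0.747 to 0.972) for Hspa1l and 1.13 (0.972 to 1.32) for Calr3. Pdilt had the widest interval, with a ratio of 0.426 (0.172 to 0.962) from 9 and 22 reads. Canx, Calr and Hspa8 had ratios of 0.973, 0.988 and 1.02. At 16.5 dpc the ratio farthest from 1 was that of Clgn, 1.66 (1.48 to 1.85), from 1002 reads in the mutant and 466 in the control. Of all genes, 4.14% had a larger ratio one way or the other there. The other members ran from 0.828 for Hspa1l to 1.23 for Calr3 at that age.

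Whether the change at 20 dpp differs from that at 10 dpp was tested as an interaction in limma over 6 libraries. The single libraries of 10 dpp are assumed there to vary like those of 20 dpp. Over all genes 22.8% of 16578 were more negative at 20 dpp and 9.14% more positive. Among the germ cell chaperones 4 of 6 were more negative, Clgn, Pdilt, Hspa2 and Hspa4l. The difference in log2 change was -5.63 ± 0.27 for Clgn (adjusted p = 5.8e-05) and -4.16 ± 0.26 for Hspa2 (5.9e-05). It was -7.01 ± 0.83 for Pdilt (5.7e-04) and -2.44 ± 0.23 for Hspa4l (2.2e-04). It did not pass for Hspa1l (-1.55 ± 0.57, adjusted p = 0.072), which passed once replicate numbers entered the fit as a block (0.0303), without mutant replicate 1 (0.0244) and without control replicate 2 (0.0132). It did not pass for Calr3 (-0.86 ± 0.47, adjusted p = 0.195), Canx (-0.61 ± 0.21, 0.058), Calr (-0.61 ± 0.22, 0.065) or Hspa8 (0.02 ± 0.29, 0.959). Canx and Calr passed without mutant replicate 1 (0.0351 and 0.0393) and without mutant replicate 2 (0.0274 and 0.0286). With total gene reads the difference in log2 change of Canx was 0.0020.

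Of the helpers around these chaperones, those of the germ line were lower at 20 dpp nearly as a whole. Of 15 measured other germ cell chaperones 14 were lower and 0 higher, with a median log2 change of -5.84 against 0.05 for all genes. Of all genes 33.1% were lower and 26.4% higher. The 14 lower genes include Hsf5 (-4.41), a heat shock factor and not a chaperone. Hsp90aa1 (-1.72) is also among them, and is counted with the HSP70 and HSP90 partners too. Dnajb3, an HSP40 of the testis, had a log2 change of -5.84 ± 0.22 (adjusted p = 1.8e-06), and Dnajb13, an HSP40 of the sperm axoneme, one of -6.46 ± 0.27 (2.5e-06). Fkbp6, which acts with HSP90 in the piRNA pathway, was the one that did not pass (0.30 ± 0.12, adjusted p = 0.069), and it passed as higher with total gene reads (0.90) and without mutant replicate 1 (0.39). With total gene reads 14 were lower and 1 higher, beside 22.1% and 49.0% of all genes.

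The ADAM3 pathway of sperm holds the known clients of calmegin, Calr3 and Pdilt and other genes on which ADAM3 depends. Of 15 measured members 13 were lower and 0 higher, beside 33.1% and 26.4% of all genes, with a median log2 change of -2.18. Adam3 itself, whose product sperm need to reach and bind the egg, had a log2 change of -11.02 ± 1.44 (adjusted p = 5.4e-04), the most negative of all genes. Its mutant mean of 152.5 ± 207.4 (SD, n = 2) normalised reads shows that the mutant libraries were far apart, against 94890 ± 12589 in the controls, and the log2 change ran from -13.74 without mutant replicate 1 to -8.30 without mutant replicate 2. Adam1b and Adam2, whose products form a heterodimer on sperm, had log2 changes of -7.46 ± 0.26 and -7.57 ± 0.32.

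Other members of the pathway spread widely. Adam5, Cmtm2a, Cmtm2b and Lypd4 had log2 changes of -9.81, -9.59, -10.30 and -6.61. The first 3 of these also depend on the mutant library, with ranges from -11.23 to -8.38, -11.01 to -8.17 and -11.90 to -8.70 when 1 library is left out. The log2 changes of Ly6k, Adam4, Adam1a, Pmis2, Tex101 and Ace were -2.18, -2.07, -1.93, -1.46, -1.34 and -1.11, and that of Adam4 ran from -2.67 to -1.48 with 1 library left out. Tpst2 (-0.13) and Pgap1 (0.28) did not pass, and the call on Pmis2 was lost without control replicate 1 (adjusted p = 0.0993). It was also lost with total gene reads (0.072), with which 12 were lower and Pgap1 was higher.

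HSPA2 partners are proteins that HSPA2 is known to bind or assist. Of 10 measured, 9 were lower and 0 higher (median log2 change -2.07), beside 33.1% and 26.4% of all genes. With total gene reads 6 were lower, beside 22.1% of all genes. Shcbp1l, which works with HSPA2 at the meiotic spindle, had a log2 change of -4.95 ± 0.12 (adjusted p = 1.4e-06), and Nasp, a histone chaperone, one of -2.31 ± 0.13 (8.3e-06).

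The general machinery of the endoplasmic reticulum was called at shares nearer to those of all genes, 26.4% higher and 33.1% lower (49.0% and 22.1% with total gene reads, 17.1% and 27.5% without control replicate 1). Of 16 calnexin cycle genes 5 (31.2%) were higher and 4 (25%) lower, with a median log2 change of 0.15, and with total gene reads 12 (75%) were higher and 3 (18.8%) lower. On the deposited scale these shares are close to the background. Uggt2, a folding sensor that adds back glucose, had a log2 change of -2.77 ± 0.17 and Man1b1, a mannosidase that marks misfolded glycoproteins, one of -1.25 ± 0.12. Lman1, a cargo receptor, was higher by 0.64 ± 0.13, and Edem1, which acts in disposal of misfolded glycoproteins, by 0.59 ± 0.13. The call on Edem1 was lost without control replicate 1 (adjusted p = 0.0569). Of the list, 1 gene was higher in that fit, and 3 were without mutant replicate 2.

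Of 19 protein disulfide isomerases and their oxidases 4 (21.1%) were higher and 7 (36.8%) lower (median -0.02), again close to the 26.4% and 33.1% of all genes. With total gene reads 11 (57.9%) were higher and 2 (10.5%) lower, beside 49.0% and 22.1%. Without control replicate 1, 2 were higher. Ero1lb, an oxidase that recharges them, had a log2 change of -2.11 ± 0.12 and Txndc12 one of -0.99 ± 0.14, while Pdia5 and Tmx4 were higher by 1.10 ± 0.16 and 0.55 ± 0.12. Of 17 genes of the unfolded protein response 4 (23.5%) were higher and 8 (47.1%) lower (median -0.26), against 8 (47.1%) and 4 (23.5%) with total gene reads, where all genes had 49.0% and 22.1%. In this list 1 was higher without control replicate 1. Sdf2l1 and Creld2, both folding helpers made under stress, had log2 changes of -2.23 ± 0.17 and -1.41 ± 0.15, and the stress sensor Eif2ak3 was higher by 0.86 ± 0.17.

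Genes whose promoter window holds the ERSE, as Canx and Calr do, went both ways. Of 35 such symbols 20 were measured, 10 of them (50%) lower and 6 (30%) higher, with a median log2 change of -0.45. Of all genes 33.1% were lower and 26.4% higher, so the higher share was near the background. Creld2 is among them, and so is Hspa5, the HSP70 of the endoplasmic reticulum (-0.58 ± 0.13, adjusted p = 0.0063). The call on Hspa5 was lost without control replicate 2 (adjusted p = 0.0814) and with total gene reads (log2 change 0.02). With total gene reads the calls on Canx, Calr, Pdia6 (log2 change -0.025), Hsp90b1 (-0.080) and Dnajc3 (-0.31) were lost too. No count over the set was made with that scale. Canx and Calr are themselves in the set, which was assembled after their values had been seen.

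Among 11 other HSP70 family genes 6 (54.5%) were lower and 2 (18.2%) higher (median -0.49), against 3 (27.3%) and 5 (45.5%) with total gene reads, the latter near the 22.1% and 49.0% of all genes. Hyou1, of the endoplasmic reticulum, had a log2 change of -1.27 ± 0.14, and the mitochondrial Hspa9 one of -0.95 ± 0.12. Hspa4, Hspa5, Hsph1 (-0.65) and Hspa12a (-0.49) were the other lower genes. Of these calls, that on Hsph1 failed when control replicate 1 was left out (adjusted p = 0.0841) or no trend was fitted (0.0587). That on Hspa12a failed with no trend (adjusted p = 0.0604) and when mutant replicate 2 (0.0698), control replicate 1 (0.0584) or control replicate 2 (0.149) was left out. Hspa12b, Hspa13 and Hspa14 did not pass. Hspa1a and Hspa1b, whose coding sequences are 99.6% identical and so can exchange reads, were higher by 1.14 and 0.77. The call on Hspa1b was lost without mutant replicate 2 (adjusted p = 0.105) and without control replicate 1 (0.0805), so that 1 gene of the list was higher in either fit.

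Of 31 partners of HSP70 and HSP90 proteins 24 (77.4%) were lower and 2 higher (median -0.94), against 16 (51.6%) and 6 with total gene reads. All genes had 33.1% lower and 26.4% higher, and with total gene reads 22.1% and 49.0%. Bag5, a nucleotide exchange factor, had a log2 change of -3.48 ± 0.17 and the HSP40 Dnajb2 one of -2.94 ± 0.14, while Bag2 was higher by 0.87 ± 0.15. Fkbp5, an immunophilin, was higher by 0.70 ± 0.19, which did not pass with no trend fitted (adjusted p = 0.0753) or without control replicate 1 (0.101), where its log2 change was 0.42 and 1 gene of the list was higher. Of the chaperonin CCT, the ring that folds actin and tubulin, 8 of 8 subunits were lower with either scale. Tcp1 led with a log2 change of -2.93 ± 0.14, followed by Cct7 with -2.16 ± 0.13, and the list's median was -1.57.

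Of 13 heat shock response genes 6 (46.2%) were higher and 5 (38.5%) lower (median 0.75), against 8 and 2 with total gene reads and 3 and 2 without control replicate 1. All genes had 26.4% higher and 33.1% lower, and with total gene reads 49.0% and 22.1%. Dnajb1 and Bag3 had log2 changes of -2.46 ± 0.14 and -1.25 ± 0.14. The small heat shock protein Hspb8 was higher by 2.19 ± 0.35 and the mitochondrial chaperonin Hspd1 by 0.75 ± 0.13. Some genes sit in more than 1 list, so the counts are not independent of each other. Odf1, Adam2, Tnp1, Tnp2, Sycp1 and Sycp3, each in a list of the germ line here, are also among the cell type markers.

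**Figure D5:**
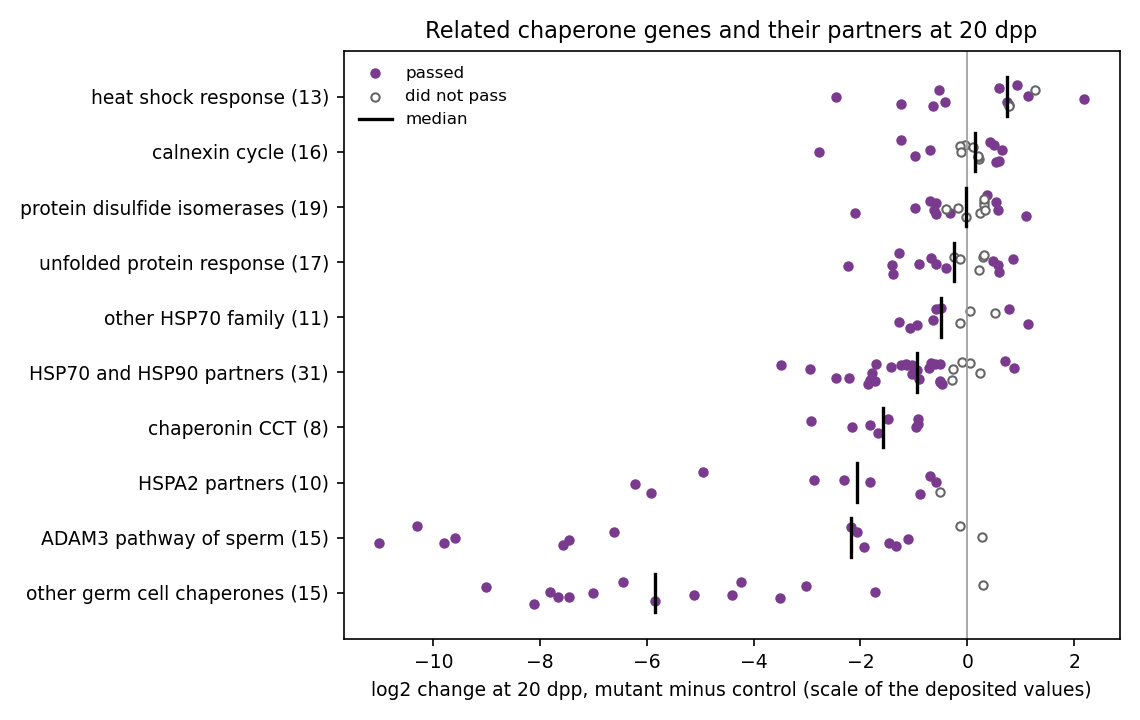
Log2 change at 20 dpp, mutant minus control on the scale of the deposited values, of each measured gene in 10 lists of related chaperones and partners, with the number measured in parentheses. Filled points passed at a limma adjusted p under 0.05, open points did not, and black bars are medians. Lists of the germ line reach the most negative values (medians -5.84, -2.18 and -2.07), while the calnexin cycle and the disulfide isomerases lie around 0.

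Over the libraries, the genes most like each germ cell chaperone were found by Pearson r of log2(CPM + 1), among genes with a mean of at least 5 CPM. The libraries share ages and genotypes, so these values are a description. For Clgn the nearest were Abca16 (r = 0.999), Catsperg1 (0.999) and Crat (0.999) over 8 libraries, and 286 genes had an r over 0.99. For Hspa2 they were Frs3, Slc26a8 and Sucla2 (each 0.998), with 126 genes over 0.99. For Hspa4l they were Rbmxl2 (0.999), Boll (0.998) and Ocel1 (0.998), with 59 over 0.99. For Pdilt, over 6 libraries, they were Kcne3, Erich3 and Tekt2 (each 1.00), with 511 over 0.99.

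Calr3 and Hspa1l had no gene over 0.99. Nearest to Hspa1l were Fam167a (0.985), Entpd1 (0.979) and Prox2 (0.977), and nearest to Calr3 were Ccdc86 (0.988), Sdad1 (0.988) and Atp9a (0.984). The genes nearest to Calr3 did not share its germ cell name, and Sdad1, for example, stood at 123.0 CPM in the control at 16.5 dpc and 230.3 in control replicate 1 at 20 dpp. Among the members themselves, r was 0.95 between Clgn and Hspa2, 0.97 between Hspa2 and Hspa4l, and 0.53 between Clgn and Calr3. Hspa2 and Hspa8 ran against each other, with an r of -0.94 over the 8 libraries.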

How the data were processed

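Whole testis RNA was extracted with Trizol, treated with DNase and checked on a Bioanalyzer, per the labels' protocols. The submitters' processing notes name build mm10, TopHat2 2.0.6, HTSeq 0.6.1 and Bowtie 1.0.0, with no role given. How reads were assigned (annotation, strand, reads with several places) is not stated in those notes or the labels. The authors deposited log2 values. Dividing a whole count by the factor of its library, adding a pseudocount of 1 and taking log2 gave 100% of them, within 0.01 reads. The factors equalled median-of-ratios factors of each age, so ages were scaled apart. Fold changes on this scale understate those of low genes. One row of unassigned repeats was left out.

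The main test was limma 3.58.1 (eBayes with a trend) in R 4.3.3 on the deposited log2 values of genes and repeat families together, with Benjamini-Hochberg adjustment over all genes. At 20 dpp it had 2 residual and 5.21 prior degrees of freedom, and the interaction 2 and 5.92. Normalised reads are the deposited scale without the log. CPM, counts per 1000000 gene reads, came from recovered counts. Positions and lengths came from GENCODE M21, in which 95.1% of symbols matched. Intervals and exact tests came from SciPy 1.17.1 in Python 3.11.15, and Biopython 1.88 gave the alignments of longest open reading frames. Fits and intervals were tested on simulated data.

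Replicates were not duplicates: chi-square per degree of freedom between their counts was 133.4 for the mutants and 80.9 for the controls. The members and gene lists were chosen with earlier results of these data known. Named in each list were the 2 genes of lowest p in each direction, and any member of the ADAM3 and HSP70 lists. For likeness, the 3 genes of highest r were named. Alternatives covered scaling, pseudocount, filter, spread, voom, genes alone, the replicate block and each library left out.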

Additional observations from a re-analysis of the deposited data

Results flagged for a closer look

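For 4 genes the change between genotypes at 20 dpp differed from that at 10 dpp by the interaction test in limma. The difference in log2 change, 20 dpp minus 10 dpp, was -5.63 for Clgn, -7.01 for Pdilt, -4.16 for Hspa2 and -2.44 for Hspa4l. At 10 dpp there is 1 library per genotype, so its spread was taken from 20 dpp, and Pdilt rests there on 9 and 22 reads. In the same libraries the summed markers of pachytene spermatocytes were 129.2 and 130.7 CPM in the mutant and control at 10 dpp, and 424.6 and 304.1 against 9027 and 8456 at 20 dpp. Their part in these differences was not tested.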

How the results depend on the processing

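Of the alternatives to the values that answer a comparison, 205 were labelled the same, 6 reversed, 10 gained a call and 4 lost one. For a gene, the same means that direction and side of the threshold were kept. For a count it means a like size, and for a ratio of genes a shift within the spread between libraries. The 5 lower germ cell chaperones at 20 dpp were 5 under every alternative run, except 6 in limma without a trend, where Calr3 passed (-0.68, adjusted p = 0.0393). Scaling mattered for the general relatives. With total gene reads the log2 changes were -0.050 for Canx, -0.035 for Calr and 0.64 for Hspa8 (called higher), and with the upper quartile -0.19, -0.18 and 0.50 (called higher). In the interaction, Canx was 0.0020 with total gene reads. The cause was not tested.

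With 1 library left out, a group of 1 is assumed to vary like the other. Hspa8 then ran from -0.20 to 0.30 at 20 dpp and from -0.23 to 0.27 in the interaction (-0.0089 without control replicate 1). Hspa1l ran from -2.03 to -1.08, Canx from -0.64 to -0.57 and Calr from -0.64 to -0.58 in the interaction, each with 2 fits that passed. The ratio of Calr3 to Calr ran from -0.22 to 0.12, and was 0.06 without mutant replicate 2.

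With the replicate number as a block, Hspa1l passed in the interaction (-1.55, adjusted p = 0.0303), and no other call on a member changed. At 20 dpp the block gave 4447 genes higher and 5612 lower, against 4539 and 5689. Deviations of libraries with the same number correlated at 0.04, so the numbers are not taken to pair them. Genes higher at 20 dpp were 8427 with total gene reads and 7538 with the upper quartile (3795 and 4200 lower), and 2945 without control replicate 1. Pdilt in the mutants and at 10 dpp is limited by depth, at 9 to 29 reads.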

Other observations

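The lower level of Hspa8 at 20 than at 10 dpp was set beside other housekeeping genes, chosen after its values were seen. In the controls the ratio of 20 to 10 dpp in CPM was 0.304 for the translation factor Eef1a1, 0.304 for the cytosolic HSP90 gene Hsp90ab1, 0.504 for the ribosomal gene Rplp0 and 0.488 for Actb. It was 1.62 for Hspa5. In the mutants the ratios were 0.333, 0.527, 0.459, 1.08 and 1.77. Gapdh, also in the set, had ratios of 0.329 in the controls and 0.897 in the mutants. Gapdh stood at only 2.09 to 14.3 CPM over the libraries, and how reads with several places were counted is not stated. Age and any difference in how the libraries of an age were made cannot be told apart.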
